A study of Mus musculus with 7 samples.

Results

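Molecular chaperones were followed across microglia of young and old mice after stroke. The set held 44 genes of 50686 in the files, and all 44 were among the 17559 genes tested. The genes were chosen by symbol as heat shock proteins, their partners and their transcription factors, on a list drawn up with the old versus young results of these data already known. Counts and medians over the set are therefore descriptions, and nothing is supported with them.

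All mice were male C57BL/6 and had a 45 min occlusion of the middle cerebral artery, and brain cells were taken 4 days later. Young mice were aged 3 to 4 months (n = 4, named 14C, 18C, 23C and 29C) and old mice 21 to 22 months (n = 3, named 2posI, 3posI and 4posI). Microglia, the resident macrophages of the brain, were sorted with antibodies to CD11b and CD45 and with Bodipy, a dye for neutral lipid, so every library came from lipid-rich (Bodipy+) cells of an ischemic brain. No library from a brain without ischemia entered the comparison, and each value below is given for the mice in the order just named.

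Chaperones bind unfolded or partly folded proteins and keep them from clumping. HSP70 proteins are loaded by DNAJ partners and hand some clients to HSP90, while chaperonins enclose a folding protein in a chamber. The transcription factor Hsf1 switches on a subset of these genes after heat or other protein-damaging stress, and that subset is also known to respond to handling of tissue.

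Promoter sequence is shown for 4 genes, all with a match, because heat shock factors bind repeated GAA units there. Hspa1a, Hspa1b and Hspb1 had log2 fold changes below 0 and Hspe1 had one above 0. The ages of Hspa1a and Hspa1b overlapped. The lines give the 250 bases before the RefSeq start, 5′ to 3′ on the gene's strand in GRCm38.p6, with matches to GAANNTTC or GAANNTTCNNGAA on either strand in capitals.
Hspa1a, chr17:34972157-34972406, minus strand: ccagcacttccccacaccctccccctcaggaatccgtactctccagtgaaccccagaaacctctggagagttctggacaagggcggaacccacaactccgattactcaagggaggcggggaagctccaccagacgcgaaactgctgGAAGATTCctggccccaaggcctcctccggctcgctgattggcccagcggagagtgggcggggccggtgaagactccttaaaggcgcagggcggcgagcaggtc
Hspa1b, chr17:34959239-34959488, minus strand: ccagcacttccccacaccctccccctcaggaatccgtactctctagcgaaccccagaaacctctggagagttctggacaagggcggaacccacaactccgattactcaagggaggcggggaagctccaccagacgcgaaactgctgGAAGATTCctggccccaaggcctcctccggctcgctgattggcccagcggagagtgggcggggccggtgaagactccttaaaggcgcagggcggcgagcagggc
Hspb1, chr5:135887669-135887918, plus strand: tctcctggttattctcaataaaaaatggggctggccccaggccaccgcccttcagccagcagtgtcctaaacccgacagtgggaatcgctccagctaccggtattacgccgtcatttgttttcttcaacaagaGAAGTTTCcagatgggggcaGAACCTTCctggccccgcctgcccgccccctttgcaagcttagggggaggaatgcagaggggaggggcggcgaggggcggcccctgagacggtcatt
Hspe1, chr1:55087898-55088147, plus strand: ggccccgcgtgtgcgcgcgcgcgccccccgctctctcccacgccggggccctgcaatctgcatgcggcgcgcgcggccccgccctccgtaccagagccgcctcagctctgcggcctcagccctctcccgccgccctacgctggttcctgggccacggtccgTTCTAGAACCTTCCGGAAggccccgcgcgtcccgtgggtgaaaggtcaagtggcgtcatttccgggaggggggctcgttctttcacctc
Hspa1a and Hspa1b matched at 247 of 250 positions, and their GAANNTTC began at position -104 from the start. In Hspb1 the matches began at -117 and -97. In Hspe1, whose GAANNTTC began at -84, GAANNTTCNNGAA was also found, with the matches beginning at -89 and -84. Over windows of 250 bases before and 50 after the start, GAANNTTC was found in 12 of the 37 chaperone genes with a window (32.4%), against 9.04% of all 27025 genes. Among genes with a window whose old libraries all lay above the young ones in CPM, Hspe1 and Cct2 had it. Hsp90b1, Dnajc3, Cct7, Stip1 and Cdc37 did not. The longer GAANNTTCNNGAA, which contains the shorter motif, was found in 4 of 37 (10.8%, namely Hspd1, Hspe1, Dnajb6 and Hsph1) against 0.662% of all genes. The matching windows of Hspd1 and Hspe1 cover much of the same DNA on opposite strands. The same bases were therefore counted for both genes with each motif. A match describes letters in a window and does not show that a factor binds there.

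Total expected counts ran from 45379786 to 53002386 in the young and from 36574083 to 46133564 in the old libraries. The share of counts in rRNA genes was 3.52 to 4.25% in young and 1.62 to 2.84% in old libraries, without overlap. The median effective length of genes was also higher in every old library, at 2155 to 2159 bases against 2101 to 2132 bases. Among markers of other cells, those of monocytes (Ly6c2, Ccr2 and Plac8) summed to 23.9, 6.85, 7.005 and 7.56 CPM in the young and 36.4, 479 and 30.3 CPM in the old mice. Mouse 3posI thus stood apart, and it also had the lowest sum of the 8 microglia markers, 9903 CPM against 17244 to 26972 CPM in the other 6 libraries. T cell markers summed to at most 0.137 CPM in any young and 2.07 CPM in any old library. With 3posI left out, the log2 fold change turned in sign for 3 of the 44 chaperone genes and changed in size by over 1.5 times for 19 more, and these 22 are also given without it. In bulk RNA, fewer cells of a type and less RNA per cell cannot be told apart.

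By edgeR's quasi-likelihood test 0 of 44 chaperone genes had an adjusted p under 0.05, where 0.803% of all genes did. By limma-voom the count was also 0 of 44, with 0.814% of all genes passing. DESeq2 passed 3 of 44, Hsp90aa1, Hspb1 and Hspa1a, where it passed 7.97% of all genes. At an unadjusted edgeR p under 0.05 there were 8 higher in old mice, with 10.1% of all genes in that direction, and 2 lower, with 8.79%. In CPM the old libraries all lay above the young ones for 9 genes (Hsp90aa1, Hsp90ab1, Hsp90b1, Dnajc3, Hspe1, Cct2, Cct7, Stip1 and Cdc37), where 8.7% of all genes did so. They all lay below for 1 gene, Hspb1, where 9.06% of all genes did so. Except where another measure is named, overlap of the ages was judged in CPM throughout. In TPM the ages stayed apart for Hsp90aa1, Dnajc3, Hspe1 and Hspb1. They overlapped in TPM for Hsp90ab1, Hsp90b1, Cct2, Cct7, Stip1 and Cdc37. Cct4, which overlapped in CPM, was lower in every old library in TPM.

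The fitted log2 fold change was above 0 for 32 of 44 genes (72.7%), while it was above 0 for 48.8% of all genes tested. The median was 0.15 over the set and -0.01 over all genes. Without 3posI, 29 of 44 were above 0 and the median was 0.11. On the length-scaled log2(TPM + 1) scale the median over the set was 0.01, with -0.07 over all genes, and 22 of 44 were above 0 against 39.2% of all genes. For 32 genes the log2 fold change was smaller than 0.3 in size. The plot of fold changes by class shows most points just right of 0, with Hspb1, Hspa1a and Hspb8 furthest to the left and Hsp90aa1, Hspb11 and Hsph1 furthest to the right.

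**Figure D1:**
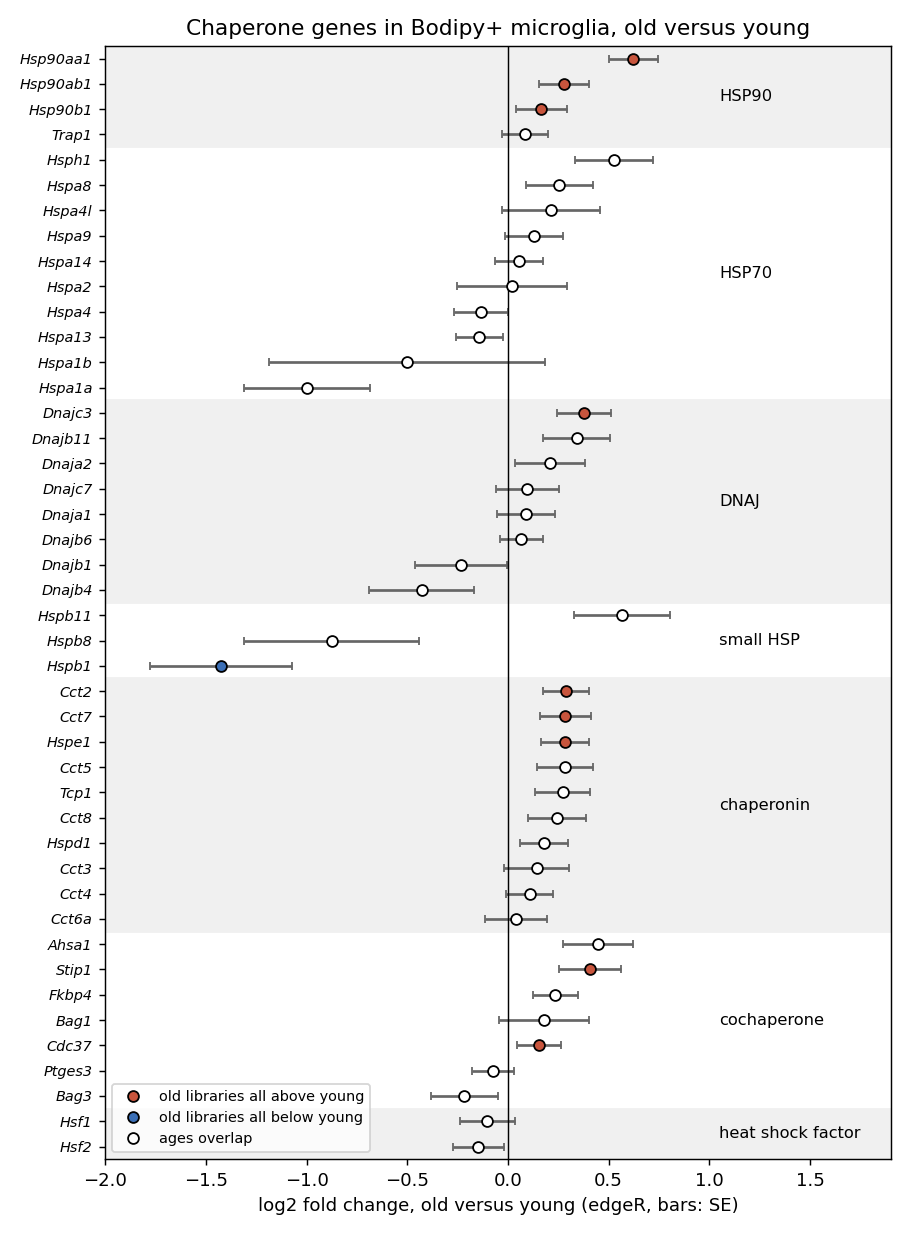
Log2 fold change of old over young (horizontal axis, edgeR) for the 44 chaperone genes, grouped by class, with bars of 1 SE. Red marks the 9 genes whose old libraries all lay above the young ones in CPM. Blue marks Hspb1, whose old libraries all lay below in CPM, and white marks overlap. Hsp90aa1 stands at 0.62 and Hspb1 at -1.42.

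Levels between genes can be compared only per length, in TPM. Hspa8, the constitutive HSP70 of the cytosol, had the highest level, 1361 ± 69.6 TPM (SD, n = 4) in young and 1463 ± 109 TPM (SD, n = 3) in old mice, and made up 23.4 to 26.6% of the TPM of the set in each library. The 3 HSP90 genes other than Trap1 followed, with Hsp90ab1 at 534 ± 60.1 TPM (SD, n = 4) in young and 569 ± 53.8 TPM (SD, n = 3) in old mice. Hsp90b1, the HSP90 of the endoplasmic reticulum, was at 437 ± 30.6 TPM (SD, n = 4) in young and 457 ± 52.5 TPM (SD, n = 3) in old mice, and its range overlapped that of Hsp90ab1. Hsp90aa1 was at 339.6 ± 42.8 TPM (SD, n = 4) in young and 514 ± 52.0 TPM (SD, n = 3) in old mice. At the low end were Hspb8 with a mean of 1.73 TPM over the 7 libraries and Hspa1b with 1.39 TPM. The set together took 0.654 to 0.714% of all counts in young and 0.749 to 0.788% in old libraries, which did not overlap. Summed in TPM the set stood at 5108 to 5786 in young and 5473 to 6011 in old libraries, which did overlap.

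**Figure D2:**
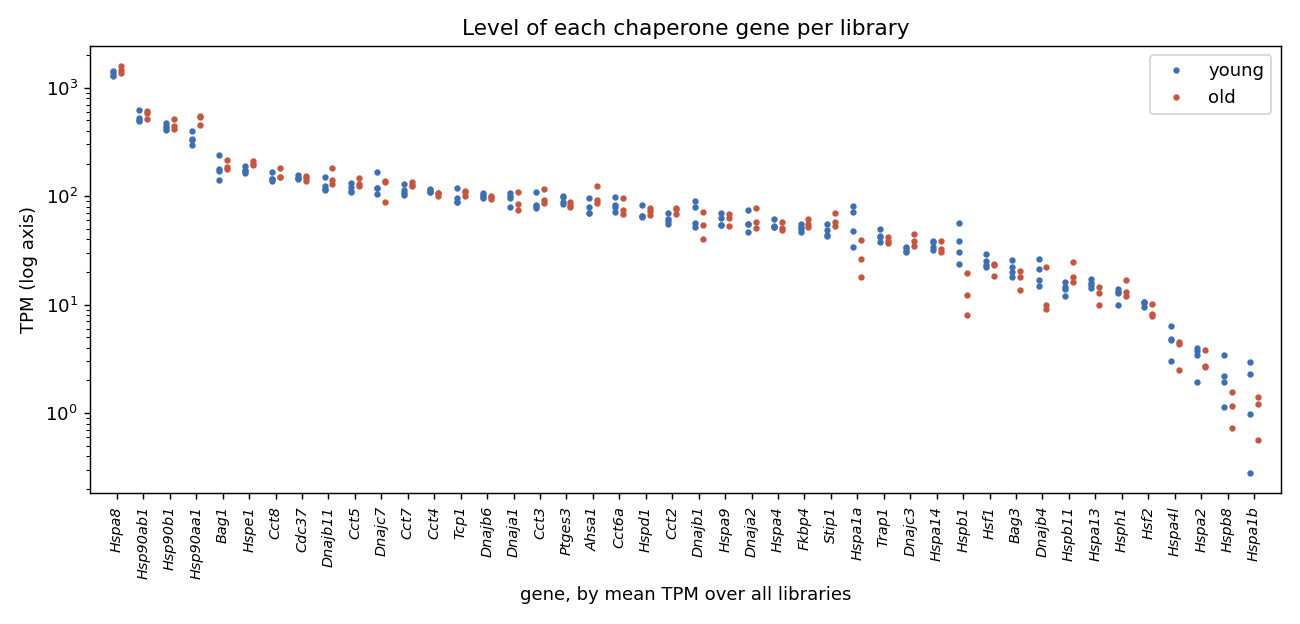
TPM (log axis) of each chaperone gene in the 4 young (blue) and 3 old (red) libraries, ordered by mean TPM over the 7. Levels span from Hspa8 at a mean of 1405 TPM to Hspa1b at 1.39 TPM, and Hsp90aa1 separates by age.

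The HSP90 genes were each above 0, 4 of 4, with a median log2 fold change of 0.22, although Trap1 was below 0 with effective length as an offset (-0.04) and on log2(TPM + 1) (-0.14). Hsp90aa1, the stress-inducible cytosolic HSP90 (chr12:110690605-110702728, minus strand), measured 276, 260.3, 309 and 265 CPM in the young mice and 418, 446 and 419 CPM in the old mice. Every old library was above every young one. The means were 278 ± 22.0 CPM (SD, n = 4) in young and 428 ± 16.2 CPM (SD, n = 3) in old mice (log2 fold change 0.62, SE 0.12, edgeR adjusted p = 0.0569). Leaving out any 1 library gave log2 fold changes of 0.59 to 0.68 and edgeR adjusted p of 0.0762 to 0.192, and the value without 3posI was 0.59. Its adjusted p was the lowest of the set. By unadjusted edgeR p, 207 genes of all tested were at or below Hsp90aa1.

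Hsp90ab1, the constitutive cytosolic form (chr17:45567775-45573271, minus strand), measured 618, 556, 642 and 604 CPM in the young mice and 746, 752 and 704 CPM in the old mice. The ages did not overlap (log2 fold change 0.28, SE 0.12, edgeR adjusted p = 0.271). The ratio of Hsp90aa1 to Hsp90ab1 in CPM, taken within each library, ran from 0.439 to 0.481 among the young and from 0.561 to 0.595 among the old. The ratio in TPM was 0.602 to 0.659 for the young and 0.892 to 0.913 for the old libraries. The inducible form was a larger part of the cytosolic HSP90 RNA in each old library. Hsp90b1 measured 797, 842, 911 and 885 CPM in the young mice and 942, 955 and 994 CPM in the old mice, also without overlap (log2 fold change 0.17, SE 0.13, edgeR adjusted p = 0.513). Trap1, the mitochondrial HSP90, had overlapping ages at a log2 fold change of 0.08.

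In the HSP70 class 6 of 10 genes were above 0, and none separated the ages. The median of 0.04 turned in sign, to -0.08 without 3posI, -0.02 without 29C and -0.06 on log2(TPM + 1), and was 0.11 without 14C. Hspa1a and Hspa1b encode the stress-inducible HSP70 and lie 9951 bases apart as single-exon genes (chr17:34969190-34972156, minus strand, and chr17:34956436-34959238, minus strand). Hspa1a measured 169, 146, 99.1 and 76.1 CPM in the young mice and 62.6, 41.4 and 80.1 CPM in the old mice. Only the 29C mouse, the lowest of the young, lay within the range of the old mice. The means were 123 ± 42.5 CPM (SD, n = 4) in young and 61.3 ± 19.4 CPM (SD, n = 3) in old mice (log2 fold change -0.9985, SE 0.31, edgeR adjusted p = 0.153), and the log2 fold change was -0.78 without 3posI. Hspa1b measured 4.49, 5.70, 1.93 and 0.584 CPM in the young mice and 3.17, 1.22 and 2.32 CPM in the old mice. Its ages overlapped widely (log2 fold change -0.50, SE 0.68, edgeR adjusted p = 0.733), and the log2 fold change was -0.21 without 3posI.

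Reads of this pair can be shared. Of the 50-base stretches in Hspa1a transcripts, 66.3% also occur in other genes, and 1716 of them are in Hspa1b, so the split between the 2 genes is uncertain. Stretches shared with other genes made up 50.1% in Hspb1, 47.5% in Hsp90aa1, 42.1% in Hspd1 and 39.4% in Hspa8, mostly with copies of low level. Such stretches exceeded 20% in 9 genes, and 14 genes had none.

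Hspa8 (chr9:40800984-40810087, plus strand) measured 1979, 1703, 1943 and 2002 CPM in the young mice and 2460.5, 2483 and 1888 CPM in the old mice. Mice 2posI and 3posI were above all young mice, while 4posI was within their range (log2 fold change 0.26, SE 0.17, edgeR adjusted p = 0.434). Hspa1a as a ratio to Hspa8 in CPM ran from 0.038 to 0.0857 among the young and from 0.0167 to 0.0424 among the old, and those ranges overlapped. Hsph1, a nucleotide exchange factor for HSP70, was at 19.1, 19.0, 23.2 and 21.5 CPM in the young mice and 29.0, 38.8 and 21.8 CPM in the old mice (log2 fold change 0.53, SE 0.19, edgeR adjusted p = 0.195), with 3posI highest and a log2 fold change of 0.29 without it. For all 7 libraries the Hsph1 value was also 0.29 with effective length as an offset, and 0.15 on log2(TPM + 1). The other genes of the class had overlapping ages, with log2 fold changes of -0.14 (Hspa13) to 0.21 (Hspa4l), and included Hspa2 (0.02), Hspa4 (-0.13), Hspa14 (0.06) and the mitochondrial Hspa9 (0.13). Without 3posI the values were -0.19 for Hspa2, which turned in sign, -0.24 for Hspa4, 0.11 for Hspa4l and 0.02 for Hspa9.

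**Figure D3:**
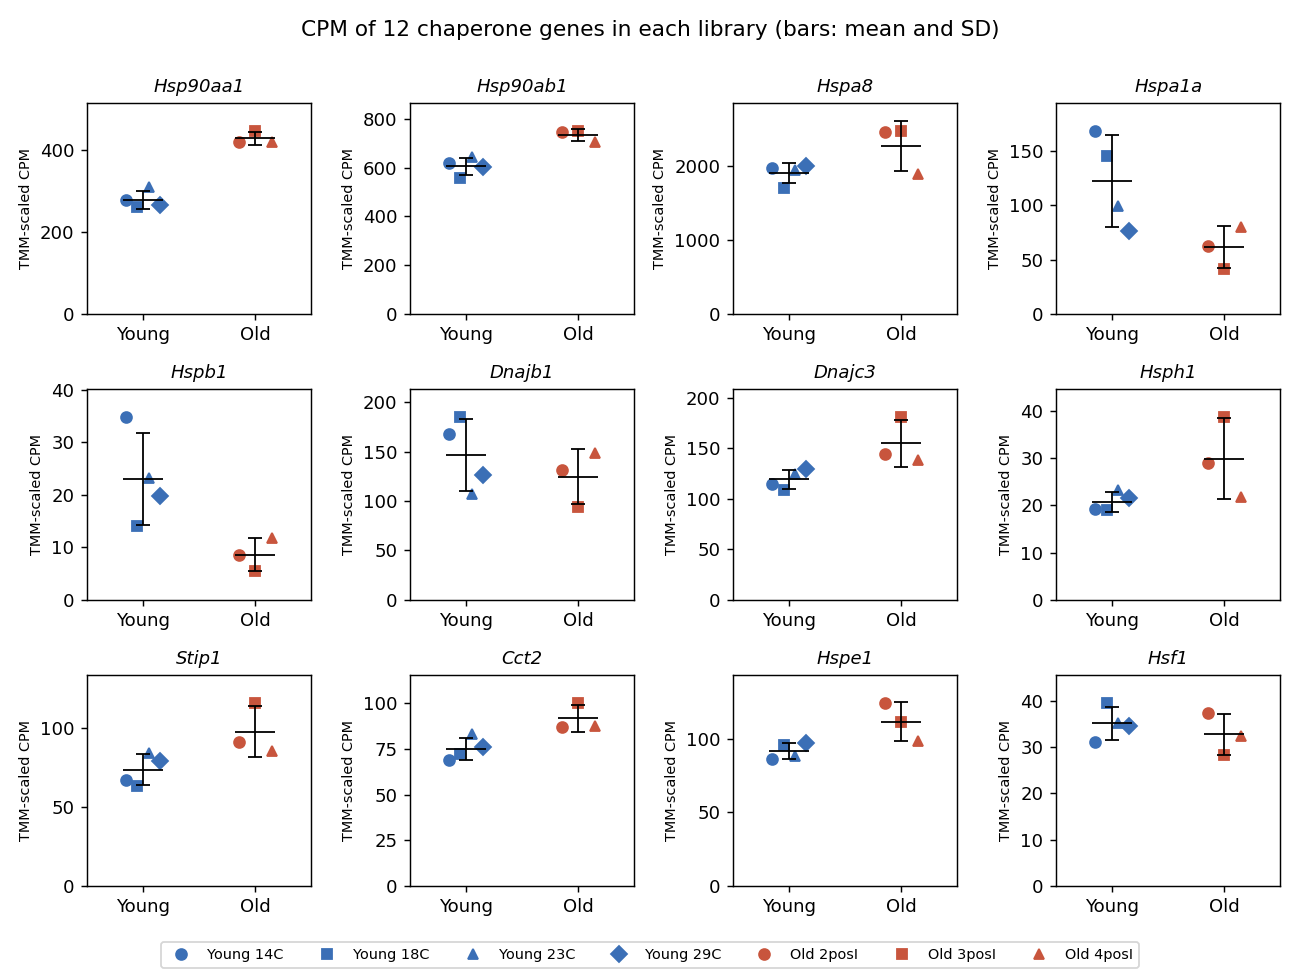
TMM-scaled CPM (vertical axes from 0) of 12 chaperone genes in each young (blue) and old (red) library, with mean and SD bars. Hsp90aa1 lies between 260.3 and 309 CPM in young and between 418 and 446 CPM in old mice, while Hspb1 lies between 14.0 and 34.9 CPM in young and between 5.43 and 11.6 CPM in old mice.

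Of the DNAJ genes, which stimulate HSP70, 6 of 8 were above 0. The median was 0.09, but 0.04 without 3posI, 0.16 without 4posI and -0.06 on log2(TPM + 1). Dnajc3, an endoplasmic reticulum partner known from the unfolded protein response, measured 115, 108, 124 and 129.7 CPM in the young mice and 144, 181 and 139 CPM in the old mice. The ages did not overlap (log2 fold change 0.38, SE 0.13, edgeR adjusted p = 0.187), and the log2 fold change was 0.25 without 3posI. Dnajb11, the class's highest gene in TPM and also of the endoplasmic reticulum, measured 140.3, 134, 177 and 159 CPM in the young mice and 176, 238 and 165 CPM in the old mice. Here 2posI and 4posI lay within the young range, and 3posI lay above it (log2 fold change 0.34, SE 0.17, edgeR adjusted p = 0.308). Without 3posI the log2 fold change was 0.16.

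Dnajb4 measured 31.6, 40.1, 28.2 and 26.5 CPM in the young mice and 18.7, 17.3 and 34.3 CPM in the old mice. Mice 2posI and 3posI were below all young mice and 4posI was within their range (log2 fold change -0.43, SE 0.26, edgeR adjusted p = 0.406), with a log2 fold change of -0.25 without 3posI. Dnajb1, the best known stress-inducible partner of HSP70, overlapped between ages at 147 ± 36.2 CPM (SD, n = 4) in young and 125 ± 27.9 CPM (SD, n = 3) in old mice (log2 fold change -0.23, SE 0.23, edgeR adjusted p = 0.612), and its log2 fold change was -0.07 without 3posI. The remaining log2 fold changes were 0.09 for Dnaja1, 0.21 for Dnaja2, 0.07 for Dnajb6 and 0.10 for Dnajc7, all with overlap. Without 3posI they were -0.08 for Dnaja1, which turned in sign, 0.03 for Dnaja2, 0.04 for Dnajb6 and 0.21 for Dnajc7.

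Small HSPs hold unfolded proteins without using ATP, and 1 of 3 was above 0. Hspb1 (chr5:135887919-135889563, plus strand), known also for binding actin, measured 34.9, 14.0, 23.2 and 19.8 CPM in the young mice and 8.58, 5.43 and 11.6 CPM in the old mice. It was the gene whose old libraries all lay below the young ones. The means were 23.0 ± 8.79 CPM (SD, n = 4) in young and 8.55 ± 3.11 CPM (SD, n = 3) in old mice (log2 fold change -1.42, SE 0.35, edgeR adjusted p = 0.0968). Leaving out any 1 library gave log2 fold changes of -1.72 to -1.14 and edgeR adjusted p of 0.0842 to 0.23, with -1.18 without 3posI. Relative to Hspa8 in CPM the ratio ran from 0.0082 to 0.0176 among the young and from 0.0022 to 0.0062 among the old, which did not overlap. Hspb8 was low and overlapped (2.76 ± 1.18 CPM (SD, n = 4) in young and 1.51 ± 0.536 CPM (SD, n = 3) in old mice, log2 fold change -0.88, SE 0.44, edgeR adjusted p = 0.317). Hspb11, which is listed by name with this family but serves in transport within cilia, was at 5.65, 5.71, 4.73 and 6.97 CPM in the young mice and 11.3, 7.95 and 6.37 CPM in the old mice (log2 fold change 0.57, SE 0.24, edgeR adjusted p = 0.247).

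The lower values of Hspa1a and Hspb1 in old mice stood beside lower values of genes known to respond to tissue dissociation. All 10 of these (Fos, Fosb, Jun, Junb, Jund, Egr1, Atf3, Ier2, Dusp1 and Zfp36) had log2 fold changes below 0, from -1.24 to -0.36, and none passed edgeR's test. They summed to 20412, 19186, 15320.1 and 14428 CPM in the young and 8562, 9293 and 16452 CPM in the old mice. The young mice 14C and 18C were highest both in that sum and in Hspa1a, and among old mice 4posI was highest in both. For Hspb1, 14C was also the highest young mouse and 4posI the highest old one, but 18C was the lowest young mouse. Of the 10 heat-inducible chaperone genes named further below, 5 had log2 fold changes below 0 and 5 above 0. Those above were Hsp90aa1 (0.62), Hsph1 (0.53), Hspe1 (0.28), Hspd1 (0.18) and Dnaja1 (0.09). The part of the sort and dissociation in the result was not tested.

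All 10 chaperonin genes were above 0, at log2 fold changes of 0.04 to 0.29 with a median of 0.26, although Cct4 (-0.11) and Cct6a (-0.05) were below 0 on log2(TPM + 1). The 8 cytosolic CCT subunits (Tcp1 and Cct2 to Cct8 as listed), which fold actin and tubulin, also had a median of 0.26. Cct2 (chr10:117051001-117063814, minus strand) was the subunit with the largest log2 fold change. It measured 69.1, 72.0, 83.1 and 76.3 CPM in the young mice and 87.3, 100.5 and 87.5 CPM in the old mice, without overlap (log2 fold change 0.29, SE 0.11, edgeR adjusted p = 0.223). Cct7 measured 140.1, 134, 171 and 163 CPM in the young mice and 189.8, 189 and 176 CPM in the old mice, also without overlap (log2 fold change 0.28, SE 0.13, edgeR adjusted p = 0.271). The old libraries all lay above the young ones in 2 of the 8 subunits, where 8.7% of all genes did so. The other subunits had log2 fold changes of 0.14 (Cct3), 0.11 (Cct4), 0.28 (Cct5), 0.04 (Cct6a), 0.24 (Cct8) and 0.27 (Tcp1). Without 3posI Cct6a turned in sign, at -0.10, Cct3 was at 0.0051 and Cct8 was at 0.12. In TPM Cct8 was the highest subunit in each of the 7 libraries, and Cct2 was the lowest in all but 4posI, where Cct6a was. The highest subunit was 2.00 to 2.58 times the lowest.

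Hspd1 and Hspe1 form the mitochondrial chaperonin and its lid. They start head to head on chromosome 1, overlapping by 112 bases on opposite strands, and the libraries did not keep strand. Hspe1 (chr1:55088132-55091307, plus strand) measured 86.1, 96.0, 88.5 and 97.0 CPM in the young mice and 125, 112 and 98.6 CPM in the old mice. The ages did not overlap, by a margin of 98.6 to 97.0 CPM (log2 fold change 0.28, SE 0.12, edgeR adjusted p = 0.249). Hspd1 was at 112 ± 11.6 CPM (SD, n = 4) in young and 127 ± 1.44 CPM (SD, n = 3) in old mice, with overlap (log2 fold change 0.18). The ratio of Hspe1 to Hspd1 in CPM ran from 0.694 to 0.935 among the young and from 0.782 to 0.988 among the old.

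Among cochaperones, 5 of 7 were above 0 (median 0.18). Stip1 links HSP70 to HSP90 and measured 67.2, 63.1, 84.1 and 79.1 CPM in the young mice and 91.2, 116 and 85.3 CPM in the old mice. The ages did not overlap (log2 fold change 0.41, SE 0.15, edgeR adjusted p = 0.203), and the value without 3posI was 0.27. Ahsa1, which activates the ATPase of HSP90, had the largest log2 fold change of the class. It measured 73.3, 63.4, 89.2 and 70.1 CPM in the young mice and 92.3, 126 and 84.3 CPM in the old mice, with 4posI within the young range (log2 fold change 0.45, SE 0.17, edgeR adjusted p = 0.217), and the log2 fold change was 0.25 without 3posI. Cdc37, which brings kinases to HSP90, measured 177, 175, 187 and 188 CPM in the young mice and 208, 209 and 189.9 CPM in the old mice. The ages were apart by a small margin (log2 fold change 0.15, SE 0.11, edgeR adjusted p = 0.47), and the sign turned on log2(TPM + 1), at -0.02.

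Bag1, a nucleotide exchange factor for HSP70 and the highest of its class in TPM, measured 162, 125, 153 and 235 CPM in the young mice and 229, 185 and 159 CPM in the old mice. Its ages overlapped (log2 fold change 0.18, SE 0.22, edgeR adjusted p = 0.707). Fkbp4, Bag3 and Ptges3 overlapped at log2 fold changes of 0.24, -0.22 and -0.07, and Bag3 was at -0.37 without 3posI.

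The 2 heat shock factors were both near 0. Hsf1, the main activator of the heat shock response, measured 31.2, 39.7, 35.2 and 34.6 CPM in the young mice and 37.5, 28.4 and 32.5 CPM in the old mice (log2 fold change -0.10, SE 0.14, edgeR adjusted p = 0.731). Hsf2 measured 19.4, 18.7, 17.3 and 20.2 CPM in the young mice and 17.2, 15.8 and 18.2 CPM in the old mice (log2 fold change -0.15, SE 0.13, edgeR adjusted p = 0.562). Without 3posI the log2 fold changes were -0.009 for Hsf1 and -0.09 for Hsf2. Both overlapped between ages, and RNA levels do not show whether a factor was active.

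Of 10 textbook heat-inducible genes (Hspa1a, Hspa1b, Hsph1, Dnajb1, Hsp90aa1, Hspb1, Bag3, Hspe1, Hspd1 and Dnaja1) 5 were above 0 with a median of -0.06, against 27 of 34 others with a median of 0.16. The difference between these lists was not tested. The ratio of Hsp90aa1 to Hspa1a in CPM ran from 1.63 to 3.48 among the young and from 5.23 to 10.8 among the old, without overlap.

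Mouse 3posI was the highest of the old mice for 25 of 44 genes (56.8%, against 36.9% of all genes) and 4posI was the lowest for 28 (63.6%, against 29.7%). Mouse 3posI was the lowest old mouse for 8 (18.2%, against 34.8% of all genes). These were Hspa1a, Hspa1b, Hspb1, Dnajb1, Dnajb4, Dnajc7, Hsf1 and Hsf2. The monocyte markers peaked in the same mouse, and their part in the result was not tested.

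**Figure D4:**
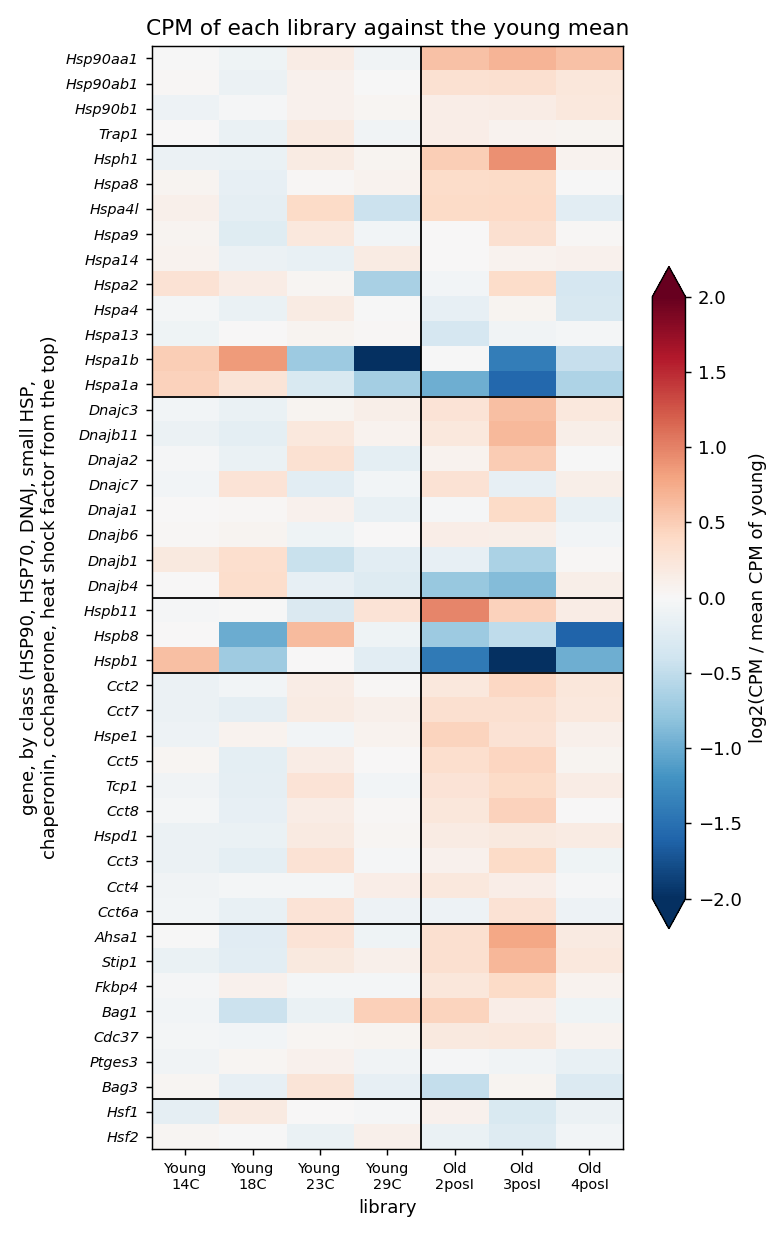
Log2 of CPM over the young mean (color) for the 44 chaperone genes (rows, by class) in each of the 7 libraries (columns). Hsp90aa1 is above the young mean in all 3 old libraries, Hsph1, Stip1 and Ahsa1 are highest in 3posI, and Hspa1a and Hspb1 are lowest there.

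Effective length, the length of transcript that RSEM counted as open to reads, reports the mix of transcripts and was not used to choose the genes. In raw form the ages did not overlap for 12 of 44 genes, 8 longer in old mice and 4 shorter, where 8.7% and 4.23% of all genes did so. Hspa4l, for example, went from a mean of 2795 to 3865 bases and Hspa4 from 3308 to 2931 bases. Divided by each library's median, 6 were higher and 19 lower in old mice, where 5.85% and 46.5% of all genes did so. In 7 of these 19 (Hspa1a, Hspa1b, Dnajc3, Bag3, Stip1, Ahsa1 and Hsf1) a single transcript gave the same length in every library, so their value was set by the library medians and reports no mix of transcripts. Others among the 19 hardly changed in raw length. The old mean differed from the young one by -0.003% in Hspa2, 0.066% in Dnajb1, -0.07% in Hspb1 and -0.104% in Hspb11. Their lower value likewise followed the library medians. The smallest p an exact permutation test (two-sided) could give was 0.0286, and adjusted over the 44 genes none was below 0.0572.

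Genes of the pathway outside the set, fixed as a list of 54, were above 0 in 29, with a median of 0.02. Of these, 1 (against 0.803% of all genes) passed edgeR's test, namely Dnajc13, a DNAJ protein of endosomes. It measured 52.8, 36.6, 40.4 and 44.8 CPM in the young mice and 86.7, 87.2 and 70.5 CPM in the old mice (log2 fold change 0.90, SE 0.15, edgeR adjusted p = 0.0426). Leaving out any 1 library kept the log2 fold change at 0.83 to 1.01 with edgeR adjusted p of 0.0541 to 0.13, so the call was lost each time, while the 10 other alternatives each made it, at adjusted p of at most 0.0443. All 5 prefoldin subunits tested, which hand actin and tubulin to CCT, were above 0 with a median of 0.40, and in 4 of them the old libraries all lay above the young ones, as they did for 8.7% of all genes. Pfdn6 had the largest log2 fold change of the 5 (0.62, SE 0.13, edgeR adjusted p = 0.0727). It was at 26.1 ± 2.51 CPM (SD, n = 4) in young and 40.0 ± 4.65 CPM (SD, n = 3) in old mice. HSP90 helpers were above 0 in 6 of 11, with Fkbp5 at -0.81, Ppp5c at -0.38 and Sugt1 at 0.46. HSP70 helpers were above 0 in 7 of 14, other DNAJ genes in 6 of 13 and other small HSPs in 1 of 4.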

How the data were processed

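Libraries were made from RNA of sorted Bodipy+ microglia, 1 library per mouse, by a low-input Smart-seq2 method without strand information, and the labels and the study's methods name different RNA kits. No molecular identifier is named, so counts are of amplified reads. Per the study's methods, the authors checked reads with FastQC 0.11.5, trimmed adapters with skewer, and mapped the reads by STAR on GRCm38 before RSEM estimated gene levels from the mouse GENCODE release 15. For STAR as for RSEM, the version was not given in the sources used. The deposited files hold RSEM's expected counts, TPM, FPKM and effective length per gene. The expected counts were estimated by the authors' RSEM run, are not normalized and need not be whole. The TPM values were scaled by the authors for gene length and to a fixed library total, and the FPKM values, scaled by the authors for length and depth, were not used here.

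Expected counts were rounded. Genes with over 10 in at least 1 library and not on X, Y or M were kept as in the study's methods, 17559 of 50686. Old and young libraries were compared with edgeR 4.0.16 (quasi-likelihood test, TMM factors, age as the only term) in R 4.3.3, with Benjamini-Hochberg adjustment over all genes tested. The study's own test, limma-voom (limma 3.58.1), and DESeq2 1.42.0 were alternatives. Others were RLE and upper-quartile factors, other filters, effective length as an offset, log2(TPM + 1) with limma, copies summed, and leaving out each library. CPM values were scaled by TMM factors. The scripts were tested on simulated data, where edgeR and limma-voom kept false calls within the threshold and DESeq2 made more false calls than it allows. No litter or batch is named for the samples, and the mouse codes differ in form between the ages. Any difference in handling that went with age cannot be told apart from age. The p-values measure the spread between mice.

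Coordinates and gene types came from GENCODE release 21 on the same build (42 tested genes not in it), and promoter windows from RefSeq, which matched 37 of 44 genes. Not matched were Hsf1, Hsp90ab1, Cct4, Hspa8, Hspa13, Hsp90aa1 and Hspa9. The genes and gene lists were chosen with earlier results of these data known. Values in every library are given by rule for genes called, genes whose ages do not overlap, the highest and most different gene of each class, and the pairs Hspa1a and Hspa1b, Hsp90aa1 and Hsp90ab1, and Hsf1 and Hsf2. Hsph1 and Hspb11 were added after their values were seen, as was the pathway gene Dnajc13. A single count covers counting error of amplified reads only, while the SE and p-values also cover the spread between mice.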

Additional observations from a re-analysis of the deposited data

Results flagged for a closer look

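In 2 of the 44 genes the 4 young mice held 1 value far from the other 3 by Dixon's test, where chance would give about 2.2. Cct4 was 149.6 CPM in mouse 29C and 131 to 134 CPM in the other young mice, a gap of 0.833 of the range. Fkbp4 was 83.4 CPM in mouse 18C and 77.1 to 78.0 CPM in the others, a gap of 0.844 of the range. The old group of 3 was too small for this test.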

How the results depend on the processing

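The count of chaperone genes called was 0 by edgeR, with limma-voom, RLE or upper-quartile factors, the stricter filter, X, Y and M kept, copies summed and log2(TPM + 1), and 0 with each library left out. It was 3 with DESeq2 (adjusted p = 1.88e-05 for Hsp90aa1, 0.0026 for Hspb1 and 0.0295 for Hspa1a), 1 with no filter on low counts (Hspb1, edgeR adjusted p = 0.0497) and 1 with effective length as an offset (Hsp90aa1, edgeR adjusted p = 0.0488). DESeq2 made more false calls than its threshold allows on simulated data. Over all genes, edgeR called 141, DESeq2 1399, log2(TPM + 1) 64, no filter 288, the offset 213, and leaving out 1 library 1 to 157. Genes above 0 numbered 29 to 32 with 1 library left out. On log2(TPM + 1) class medians were 0.0769 for HSP90, -0.0618 for DNAJ and -0.5289 for small HSPs, and the DNAJ median was 0.0356 to 0.1556 with 1 library left out. The HSP70 median was -0.059 on log2(TPM + 1) and -0.0805 to 0.1131 with 1 library left out. Signs turned as follows. With upper-quartile factors Hspa2 was -0.0209 and Cct6a -0.0003, and with no filter Hspa2 was -0.005. With the offset Trap1 was -0.0388, Hspa4 0.0525, Hspa4l -0.1911 and Cct4 -0.0021. On log2(TPM + 1) Trap1 was -0.1357, Hspa2 -0.0502, Hspa4l -0.2598, Hspa14 -0.0648, Dnaja1 -0.1077, Dnajb6 -0.0425, Dnajc7 -0.081, Cct4 -0.1088, Cct6a -0.054 and Cdc37 -0.0222. With 1 library left out Hspa2 ran from -0.1928 to 0.1649, Dnaja1 from -0.0805 to 0.1887, Dnajc7 from -0.0095 to 0.2087 and Cct6a from -0.1016 to 0.1448. The cause was not tested. No paired analysis was possible because the labels give no replicate numbers shared between ages.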

Other observations

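Outside the chaperone set, the old libraries all lay above the young ones for 11 of the 54 pathway genes, where 8.7% of all genes did so. They all lay below for 8, where 9.06% of all genes did so. Bag6, Dnajc2 and Hikeshi are given here from the higher genes and Ppp5c from the lower ones. None of them passed edgeR's test. Bag6, a chaperone for membrane proteins bound for insertion, was at 27.3 ± 2.22 CPM (SD, n = 4) in young and 37.8 ± 1.21 CPM (SD, n = 3) in old mice (log2 fold change 0.47, SE 0.11, edgeR adjusted p = 0.0926). Dnajc2, a DNAJ protein of the ribosome, was at 29.9 ± 0.976 CPM (SD, n = 4) in young and 40.4 ± 2.56 CPM (SD, n = 3) in old mice (log2 fold change 0.43, SE 0.10, edgeR adjusted p = 0.0926). Ppp5c, a phosphatase that binds HSP90, was at 72.6 ± 2.995 CPM (SD, n = 4) in young and 56.0 ± 4.95 CPM (SD, n = 3) in old mice (log2 fold change -0.38, SE 0.11, edgeR adjusted p = 0.131). Hikeshi, which carries HSP70 into the nucleus, was at 23.7 ± 2.03 CPM (SD, n = 4) in young and 33.9 ± 5.55 CPM (SD, n = 3) in old mice (log2 fold change 0.52, SE 0.14, edgeR adjusted p = 0.125). These 4 genes were chosen after their values were seen.

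Marker lists of other cells summed as follows. Border macrophage markers were at 38.1 to 168 CPM in young and 53.1 to 432 CPM in old libraries. Neutrophil markers were at 1.22 to 118 CPM and 31.6 to 95.2 CPM, and B cell markers at 14.8 to 22.6 CPM and 9.65 to 21.7 CPM. Astrocyte markers were at 103 to 140 CPM and 61.9 to 168 CPM, oligodendrocyte markers at 98.02 to 123 CPM and 107 to 140 CPM, neuron markers at 2.30 to 4.14 CPM and 1.20 to 3.49 CPM, and endothelial markers at 50.2 to 97.9 CPM and 40.4 to 53.6 CPM.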
